A study of Mus musculus with 9 samples.

Results

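The genes described here are 10 that encode enzymes of carbonyl, quinone and epoxide detoxification, together with a heme-binding protein that was listed with them. They were taken by gene name from a table of 54532 genes, and they are Esd, Adh5, Akr1b8, Akr1b3, Akr1a1, Cbr1, Nqo1, Ephx1, Aldh2 and Hebp2. Of the 10, 9 passed a filter on low values, which 11585 genes of the table passed. The members were chosen with the data known. Esd and Akr1b8 were selected on their higher level in LPS + G-CDs than in LPS, and Akr1b8 and Hebp2 were among the genes that the study displayed from that comparison. For these 3 genes all comparisons are given as values with no test, since each comparison holds libraries that entered their selection. Hebp2 is not one of the detoxifying enzymes, although its name stands in the list.

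The cells were RAW264.7, an established mouse macrophage line that shares its genotype across all groups. RNA-seq was run on 3 libraries of untreated control cells, 3 of cells exposed for 6 h to 1 μg/ml LPS and 3 of cells exposed for 6 h to both 1 μg/ml LPS and 400 μg/ml G-CDs. LPS is a bacterial lipopolysaccharide that macrophages sense, and G-CDs are carbon dots made from licorice root with an activity like that of superoxide dismutase. The titles of the last group name G-CDs while the treatment label of its samples gives LPS alone, so the group follows the titles and the study's methods. No library of G-CDs without LPS was used here. Whether the 3 libraries of a group came from separate cultures is not stated, so the p-values measure the spread between libraries, which may be technical. The level of a gene was given as FPKM, the reads on a gene scaled to the length of the gene and to the size of the library. That library size, inferred from the values, was 1.11 to 1.14 times the reads on genes in control and 0.929 to 0.936 times in LPS. In LPS + G-CDs replicates 1, 2 and 3 it was 0.980, 0.960 and 0.880 times. The deposited scale thus carries a factor that differs between groups.

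The libraries held from 14752400 to 17312255 reads on genes. All 8 macrophage markers examined were at an FPKM of 1 or more in every library. Of 8 markers of other cell types, 0 reached that level in every library of a group, and their summed level was 0.50 to 1.09 FPKM with Epcam at 0. The summed level of 5 genes known to respond to LPS was 37.2 to 69.4 FPKM in control, 4433 to 4593 in LPS and 3756 to 4123 in LPS + G-CDs. The 5 did not move alike between LPS and LPS + G-CDs. Mean Tnf was 2512 and 2622 FPKM and mean Ptgs2 1461 and 931, and the means of Il1b, Nos2 and Il6 were also lower in LPS + G-CDs. The libraries of LPS + G-CDs differed among themselves in the sum of all FPKM values, which was 333125, 382451 and 472870 in replicates 1, 2 and 3, against 347815 to 349699 in LPS. In bulk RNA, a lower share of cells that express a gene and less RNA per cell cannot be told apart.

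Reactive carbonyls arise in cells from lipid peroxidation, sugar metabolism and the breakdown of methylated compounds. They are cleared by reduction to alcohols, which aldo-keto reductases and carbonyl reductases carry out with NADPH, by oxidation to acids, which aldehyde dehydrogenases carry out, or by way of glutathione. Formaldehyde takes the last route, in which it joins glutathione spontaneously, ADH5 oxidizes the adduct to S-formylglutathione, and the esterase ESD releases formate and restores glutathione. Several genes of quinone and carbonyl reduction, Nqo1 and Akr1b8 among them, are known targets of the transcription factor Nrf2, the main regulator of the response to electrophiles.

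The promoters of Esd and Akr1b8 are shown because these genes had the largest differences between LPS + G-CDs and LPS among the 9 genes past the filter. They are RefSeq windows on GRCm38.p6, each of the 250 bases before an annotated start site, written 5′ to 3′ on the strand of the gene. Windows were found for 8 of the 10 genes. The Esd window is chr14:74732047-74732296 (plus strand) and the Akr1b8 window is chr6:34353896-34354145 (plus strand), and the capitals mark a TATA box sequence, TATAAA, on the reverse strand.
Esd: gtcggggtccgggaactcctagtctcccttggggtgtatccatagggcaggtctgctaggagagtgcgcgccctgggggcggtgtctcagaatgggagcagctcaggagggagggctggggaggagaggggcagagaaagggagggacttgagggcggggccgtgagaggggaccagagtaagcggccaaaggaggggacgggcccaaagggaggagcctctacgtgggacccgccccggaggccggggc
Akr1b8: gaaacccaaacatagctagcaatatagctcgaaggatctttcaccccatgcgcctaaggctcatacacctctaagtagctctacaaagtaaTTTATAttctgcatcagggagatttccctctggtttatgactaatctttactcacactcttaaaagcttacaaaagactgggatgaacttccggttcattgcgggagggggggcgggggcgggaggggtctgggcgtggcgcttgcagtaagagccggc
The Esd window was 68.4% G and C, the Akr1b8 window 49.6%, and the median of all windows was 52.4%. The TATA box sequence was searched on both strands and was found in 12.4% of 32851 windows, among them that of Akr1b8, where it lay 159 bases before the start site. It was also found before Nqo1, at 29 bases, before Ephx1, at 214 bases, and in the window of another annotated start of Adh5, at 207 bases. The core of the antioxidant response element, TGACNNNGC, was in 10.2% of all windows and the AP-1 sequence TGANTCA in 6.75%. Neither was present in the windows of the 8 genes, which says only that these letters are not in these 250 bases. The motifs were searched independently, so that a base could count for more than one of them.

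Esd (ENSMUSG00000021996, chr14:74732297-74750765, plus strand, GRCm38) encodes S-formylglutathione hydrolase, the last enzyme of formaldehyde oxidation. In control libraries it stood at 46.3, 46.4 and 65.2 FPKM, in LPS at 60.1, 64.0 and 65.3, and in LPS + G-CDs at 163, 208 and 296. Every LPS + G-CDs library was above every other library, whereas control and LPS overlapped. The means were 52.6 ± 10.8, 63.1 ± 2.69 and 222.4 ± 67.5 FPKM (SD, n = 3 each). The mean level in LPS + G-CDs was 3.52 times that in LPS and 4.22 times that in control. On the log2(FPKM + 1) scale, which understates the changes of low genes, the difference from LPS was 1.76 (SE 0.22) and that from control 2.03. Between LPS and control the difference was 0.27, and over the other 5 scalings tried it ran from 0.01 on TPM, in which each library is rescaled to the same sum, to 0.34 with the gene-length trend removed. On TPM it was 0.24 relative to the median of all genes. Without control replicate 3 the difference between LPS and control was 0.44, the highest of the 20 alternatives. Esd was at the 92.6th percentile of the genes tested in LPS and at the 97.8th in LPS + G-CDs.

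Adh5 (ENSMUSG00000028138, chr3:138443093-138455499, plus strand) encodes the dehydrogenase that acts just before ESD, and the same enzyme also reduces S-nitrosoglutathione. Its FPKM was 21.6, 17.1 and 22.05 in control, 12.8, 11.9 and 11.8 in LPS, and 13.6, 17.9 and 23.1 in LPS + G-CDs. All LPS libraries lay below all others, while LPS + G-CDs spanned the control range. LPS lowered Adh5, from 20.3 ± 2.72 to 12.1 ± 0.575 FPKM (SD, n = 3), a log2 difference of -0.69 (SE 0.18, limma adjusted p = 0.0211). The call was lost when control replicate 1 or 3 or any LPS library was left out, with adjusted p from 0.0538 to 0.0707. Against LPS, the 18.2 ± 4.76 FPKM of LPS + G-CDs was higher by 0.51 on the log2 scale (95% interval 0.10 to 0.93), which did not pass the threshold across all genes (adjusted p = 0.297). Against control the difference was -0.17 (interval -0.59 to 0.25, adjusted p = 0.543).

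The ratio of Esd to Adh5 within a library removes any factor that scales the whole library. It was 2.15, 2.71 and 2.96 in control, 4.69, 5.40 and 5.55 in LPS, and 12.03, 11.66 and 12.83 in LPS + G-CDs. The groups did not overlap, and relative to its mean the ratio was spread less within LPS + G-CDs (12.2 ± 0.597, SD, n = 3) than the FPKM values of Esd. The size of the ratio rests on the deposited lengths, 3366 bases for Esd and 5408 for Adh5. Their longest coding transcripts are 1988 and 1604 bases long, so the size is not read here, only how the groups compare. Because Esd was chosen for its level in LPS + G-CDs, these ratios are a description.

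**Figure D1:**
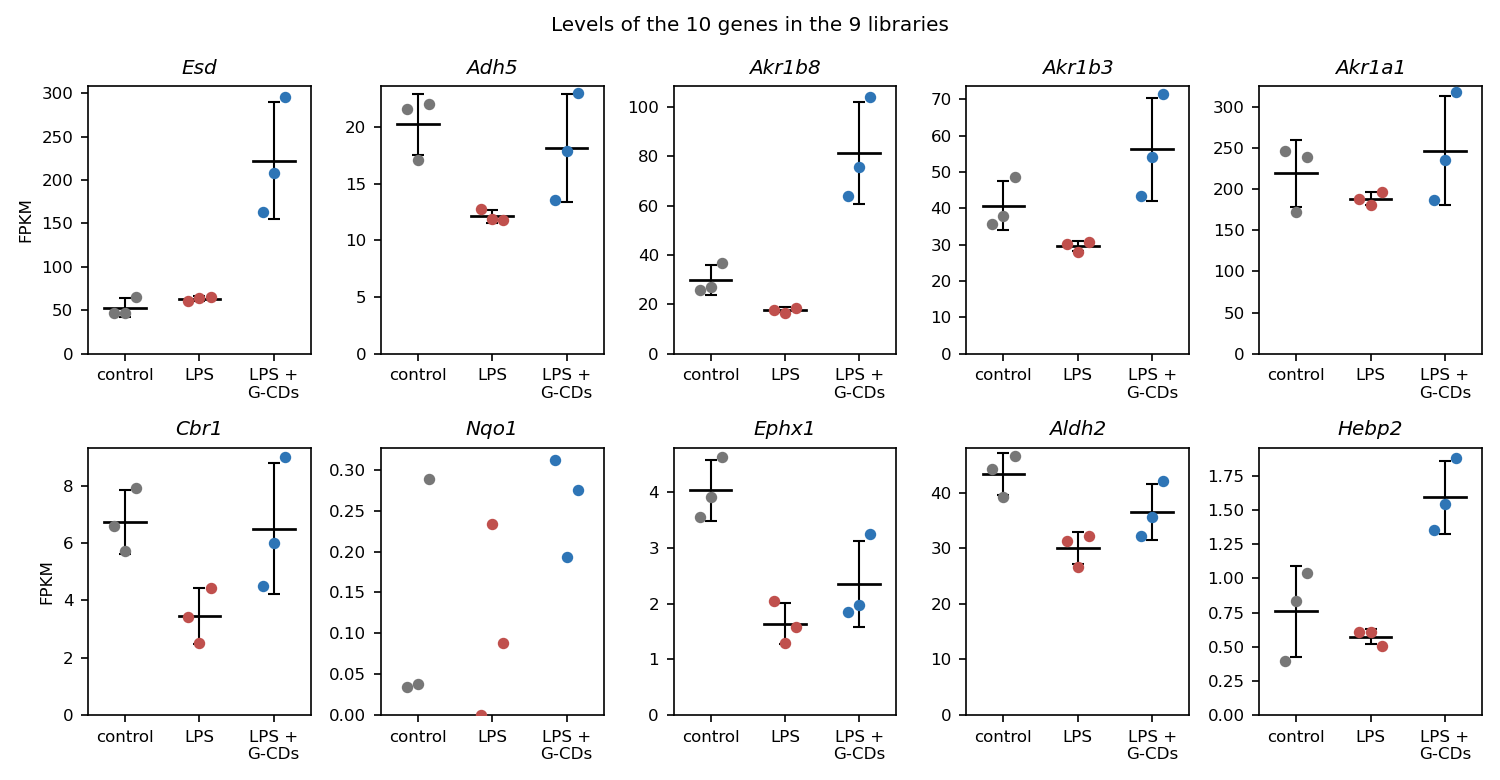
FPKM of the 10 genes (y axis, from 0, a separate linear scale for each gene) in the libraries of control, LPS and LPS + G-CDs (x axis). Points are the 3 libraries of a group in the order of replicates 1, 2 and 3, lines are means and bars 1 SD, except for Nqo1, where only the points are drawn. Esd and Akr1b8 in LPS + G-CDs lie above all other libraries, and the mean of LPS is the lowest of the 3 for 8 of the 9 genes with means drawn, Esd being the exception.

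Akr1b8 (ENSMUSG00000029762, chr6:34354119-34368463, plus strand) encodes an aldo-keto reductase of aliphatic and aromatic aldehydes. Its FPKM was 25.9, 27.2 and 36.9 in control, 17.8, 16.6 and 18.7 in LPS, and 63.9, 75.8 and 104 in LPS + G-CDs. The 3 groups were fully separate, in the order LPS, control, LPS + G-CDs. With means of 30.0 ± 6.02, 17.7 ± 1.03 and 81.3 ± 20.7 FPKM (SD, n = 3 each), LPS + G-CDs stood at 4.60 times LPS and 2.71 times control. The log2 difference from LPS was 2.11 (SE 0.20), larger than that of the other 8 genes measured, and that from control was 1.40. Between LPS and control the difference was -0.71 (SE 0.20), given with no test because low values in these LPS libraries also entered the selection of Akr1b8.

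Akr1b3 (ENSMUSG00000001642, chr6:34302434-34317478, minus strand) is aldose reductase, which turns glucose into sorbitol and also reduces lipid aldehydes. It lies beside Akr1b8 on chromosome 6. Control libraries held 35.7, 37.9 and 48.6 FPKM, LPS libraries 30.1, 27.9 and 30.8, and LPS + G-CDs libraries 43.3, 54.0 and 71.5. Each LPS library was below each library of the other groups, while LPS + G-CDs and control overlapped. The mean of 56.3 ± 14.2 in LPS + G-CDs was 1.90 times the 29.6 ± 1.496 of LPS (SD, n = 3). The log2 difference was 0.87 (SE 0.19, 95% interval 0.44 to 1.31, unadjusted p = 0.00141 in limma). It met the study's rule of p under 0.01 and a change over 1.5-fold, which 1.24% of all genes met in this direction, but not the adjusted threshold (adjusted p = 0.126). It passed that threshold under 2 of 20 alternatives, quantile normalization (adjusted p = 0.0335) and without LPS + G-CDs replicate 1 (adjusted p = 0.0366). In these 2 fits 0.285% and 0.915% of all genes were higher. Between LPS and control the difference was -0.44 (adjusted p = 0.119), which passed under 5 of 20 alternatives, namely TPM, quantile normalization, limma's voom on the reads, the 6 libraries alone and without LPS + G-CDs replicate 3. Between LPS + G-CDs and control it was 0.44 (interval 0.005 to 0.87, adjusted p = 0.134). The sequence of Akr1b3 is shared in large part with other annotated genes, since 86.2% of the 50-base words of its longest coding transcript occur elsewhere, mostly in Gm38056 (at most 0.108 FPKM) and in the processed pseudogenes Gm6644 (listed at 0 in every library), Gm6736 and Gm12138 (at most 2.70 and 3.05 FPKM). How reads that match several genes were counted is not given, so the level of Akr1b3 is uncertain.

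The ratio of Akr1b8 to Akr1b3 was 0.724, 0.716 and 0.759 in control, 0.590, 0.595 and 0.606 in LPS, and 1.48, 1.40 and 1.46 in LPS + G-CDs. The ratio was highest in LPS + G-CDs, and the groups did not overlap. Its size rests on the lengths deposited with the table, 8384 bases for Akr1b3 and 1499 for Akr1b8, whereas their longest coding transcripts are 1387 and 1358 bases long, so that only its order between groups is read here. Of the neighbouring genes of the same family, Akr1b10 (chr6:34384218-34396950) stood at 5.46 ± 0.173 FPKM in control, 3.08 ± 0.467 in LPS and 4.45 ± 0.889 in LPS + G-CDs (SD, n = 3), and Akr1b7 had at most 6 reads in a library. LPS lowered Akr1b10, with a log2 difference of -0.67 (limma adjusted p = 0.00814). The difference of Akr1b10 between LPS + G-CDs and LPS was 0.41 (adjusted p = 0.295). Akr1b8 shared 3.21% of its 50-base words with other genes, mainly with Akr1b10, whose level was below its own in every library.

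**Figure D2:**
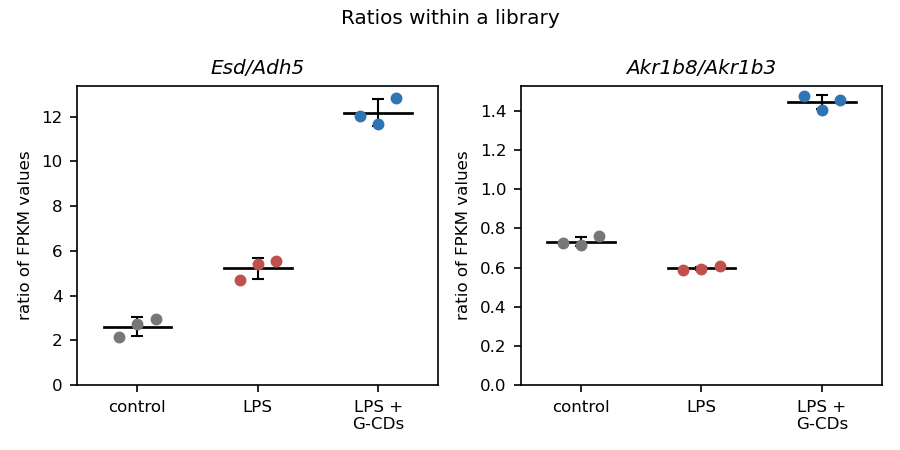
Ratio of the FPKM of Esd to that of Adh5 (left) and of Akr1b8 to that of Akr1b3 (right), within each library (y axis, linear from 0), for control, LPS and LPS + G-CDs (x axis). Points are libraries, lines are means and bars 1 SD, and in both panels LPS + G-CDs is highest, at 12.2 and 1.45 on average.

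Akr1a1 (ENSMUSG00000028692, chr4:116636510-116651680, minus strand) encodes aldehyde reductase and had the highest FPKM of the 10 genes in every library. Its FPKM was 247, 172 and 240 in control, 189, 181 and 196 in LPS, and 187, 236 and 319 in LPS + G-CDs, so that all groups overlapped. None of its differences passed the threshold in limma, at 0.35 on the log2 scale between LPS + G-CDs and LPS (interval -0.14 to 0.85, adjusted p = 0.380), -0.20 between LPS and control (adjusted p = 0.533) and 0.15 between LPS + G-CDs and control (adjusted p = 0.655). The 0.35 ranged from 0.13 with quantile normalization to 0.54 without LPS + G-CDs replicate 1 and passed in no alternative. The difference between LPS and control passed on TPM and with quantile normalization (limma adjusted p = 0.0287 and 0.0226). In LPS + G-CDs the means of Akr1a1 (247 ± 66.7 FPKM) and Esd (222.4 ± 67.5) were closer than their spread, whereas in LPS Akr1a1 was at 188.6 ± 7.83 and Esd at 63.1 ± 2.69 (SD, n = 3).

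Cbr1 (ENSMUSG00000051483, chr16:93605853-93610505, plus strand) encodes a carbonyl reductase of quinones and prostaglandins. It was at 6.58, 5.70 and 7.92 FPKM in control, 3.43, 2.496 and 4.44 in LPS, and 4.50, 6.01 and 9.0 in LPS + G-CDs. LPS libraries were the lowest, although the highest of them, at 4.44, was close to the lowest of LPS + G-CDs. The fall with LPS, from 6.73 ± 1.11 to 3.46 ± 0.975 FPKM (SD, n = 3), was a log2 difference of -0.81 (SE 0.24, limma adjusted p = 0.0325). The call was lost when no filter on low values was used (adjusted p = 0.0774), and without control replicate 1 or 3, LPS replicate 1 or 2, or LPS + G-CDs replicate 2 (adjusted p from 0.0535 to 0.122). LPS + G-CDs was higher than LPS by 0.73 (SE 0.24, interval 0.18 to 1.28), short of the threshold (limma adjusted p = 0.273), and differed from control by -0.08 (interval -0.63 to 0.47).

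Nqo1 (ENSMUSG00000003849, chr8:107388225-107403206, minus strand), which reduces quinones to hydroquinones, was the gene that did not pass the filter. It had 1, 1 and 8 reads in control, 0, 5 and 2 in LPS, and 7, 5 and 6 in LPS + G-CDs, or at most 0.312 FPKM. The groups overlapped and no fold is given, since a difference was not detectable at this depth.

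Ephx1 (ENSMUSG00000038776, chr1:180976210-181020904, minus strand) encodes microsomal epoxide hydrolase, which opens epoxides to diols. Its FPKM was 3.55, 3.92 and 4.64 in control, 2.04, 1.3 and 1.59 in LPS, and 1.84, 1.98 and 3.25 in LPS + G-CDs. Both treated groups lay wholly below control and overlapped each other. From control (4.04 ± 0.551) to LPS (1.64 ± 0.373 FPKM, SD, n = 3) it fell by 0.93 on the log2 scale (SE 0.19, limma adjusted p = 0.00498), and this call held under all 19 alternatives that gave a value, with adjusted p from 0.000677 to 0.0253. LPS + G-CDs, at 2.36 ± 0.776, was below control by a log2 difference of -0.60 (SE 0.19, adjusted p = 0.0428). That call is weak, since it held under only 7 of 19 alternatives (adjusted p from 0.00251 to 0.148) and was lost when any single library of the 9 other than LPS + G-CDs replicate 3 was left out. Between LPS + G-CDs and LPS the difference was 0.33 (interval -0.09 to 0.75, adjusted p = 0.356). It ranged from 0.12 with the gene-length trend removed to 0.50 with voom and passed in no alternative.

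Aldh2 (ENSMUSG00000029455, chr5:121566027-121593824, minus strand) encodes the mitochondrial dehydrogenase of acetaldehyde and lipid aldehydes. Control libraries stood at 44.3, 39.3 and 46.6 FPKM, LPS libraries at 31.2, 26.7 and 32.2, and LPS + G-CDs libraries at 32.1, 35.6 and 42.1. Control lay wholly above LPS, and LPS + G-CDs overlapped both. The fall from 43.4 ± 3.73 to 30.0 ± 2.94 FPKM with LPS (SD, n = 3) was a log2 difference of -0.52 (SE 0.14, limma adjusted p = 0.0216), lost without control replicate 3 or LPS replicate 1 or 2 (adjusted p from 0.059 to 0.0957). LPS + G-CDs, at 36.6 ± 5.04, differed from LPS by 0.27 (interval -0.04 to 0.59, adjusted p = 0.338) and from control by -0.24 (interval -0.56 to 0.07, adjusted p = 0.247). The difference from LPS ranged from 0.11 on TPM to 0.36 without LPS + G-CDs replicate 1 and passed in no alternative.

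Hebp2 (ENSMUSG00000019853, chr10:18539498-18546076, minus strand) encodes heme-binding protein 2. It was low, at 0.393, 0.837 and 1.04 FPKM in control, 0.608, 0.608 and 0.508 in LPS, and 1.36, 1.55 and 1.88 in LPS + G-CDs, with 29 to 104 reads in a library. Only the LPS + G-CDs libraries and control replicate 3 reached 1 FPKM, so it passed the filter through the group where it was high. At such levels the log2(FPKM + 1) scale gives much smaller differences than the reads do, 0.72 between LPS + G-CDs and LPS against 1.46 with voom. LPS + G-CDs was above all other libraries, with a mean 2.78 times that of LPS and 2.11 times that of control. The difference between LPS and control was -0.14 on the log2 scale, and it ranged from -0.53 with voom to -0.024 without control replicate 3.

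Counted together, no overlap between LPS + G-CDs and LPS was seen for 6 of the 10 genes, all higher in LPS + G-CDs (Esd, Adh5, Akr1b8, Akr1b3, Cbr1 and Hebp2), and 3 of these 6 had been picked on that comparison. Of all genes tested, 12.9% were higher in this way. At an adjusted p under 0.05, 0.25% of genes were higher and 0.242% lower in LPS + G-CDs than in LPS. Of the 6 members that could be tested, 0 passed in limma and 0 with limma's voom on the reads, while 3 (Adh5, Akr1b3 and Cbr1) were higher at an unadjusted p under 0.05. Higher at that level were 7.19% of all genes. The median log2 difference over these 6 was 0.43, against 0.017 over all genes. It was 0.62 without LPS + G-CDs replicate 1, where Akr1b3 also passed the adjusted threshold, and 0.25 without LPS + G-CDs replicate 3.

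LPS against control gave 6 of 10 genes wholly below control (Adh5, Akr1b8, Akr1b3, Cbr1, Ephx1 and Aldh2), of which Akr1b8 was picked, and 25.1% of all genes tested lay wholly below. On TPM Akr1a1 joined them, and 38.4% of all genes lay wholly below. Of the 6 members that could be tested, 4 were lower at an adjusted p under 0.05 in limma (Adh5, Cbr1, Ephx1 and Aldh2) and 0 higher, where 15.6% of all genes were lower and 15.8% higher. The median over these 6 was -0.60, against 0.016 over all genes. The count depends on single libraries, since only Ephx1 passed without control replicate 3, without LPS replicate 1 or without LPS replicate 2, and 2 passed without control replicate 1 (Ephx1 and Aldh2), where 13%, 10.5%, 10.3% and 13.8% of all genes were lower. It rose to 6 on TPM and with quantile normalization, where 26.4% and 20.3% of all genes were lower, and to 5 with voom, where 27% were. The added genes were Akr1b3 (adjusted p = 0.002, 0.00497 and 0.00964, in that order) and, on TPM and with quantile normalization, Akr1a1 (adjusted p = 0.0287 and 0.0226).

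In LPS + G-CDs against control, Esd, Akr1b8 and Hebp2 were wholly above control, as were 17.7% of all genes, and Ephx1 wholly below, as were 16.6%. On TPM the same 3 genes were wholly above and 4 were wholly below (Adh5, Cbr1, Ephx1 and Aldh2), where 7.97% of all genes were above and 33% below. At the adjusted threshold 12.8% of all genes were higher and 12.4% lower, and of the 6 members tested 1 was lower (Ephx1) and 0 higher. The intervals of Akr1a1, Cbr1, Adh5 and Aldh2 included 0, and that of Akr1b3 began just above it. With TPM, 3 of the 6 were lower (Adh5, Ephx1 and Aldh2, adjusted p = 0.00624, 0.00251 and 0.00222), with voom 2 (Ephx1 and Aldh2), where 27.8% and 22% of all genes were lower. With quantile normalization Aldh2 was lower (adjusted p = 0.0111) and Ephx1 did not pass (adjusted p = 0.0818), and 15.2% of all genes were lower. On TPM the difference of Akr1b3 was 0.0093. Without LPS + G-CDs replicate 1, Akr1b3 was higher (0.61, adjusted p = 0.0351) and Ephx1 no longer passed. These comparisons share libraries, so their values stand side by side and are not independent of each other.

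**Figure D3:**
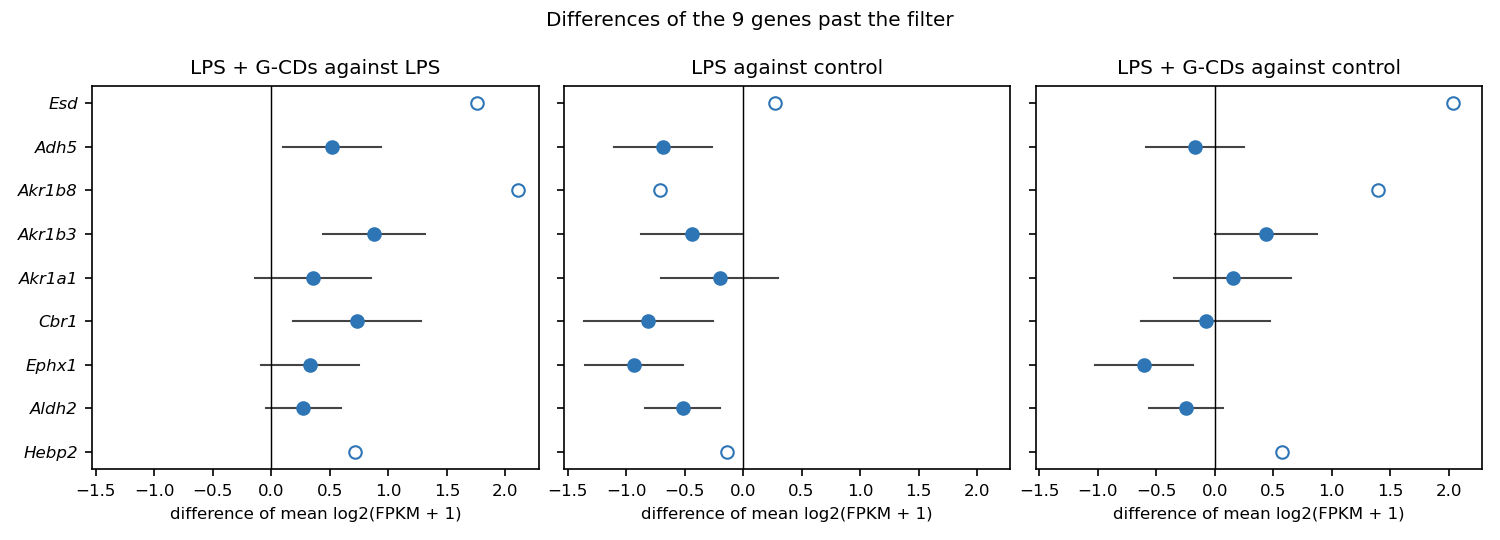
Difference of mean log2(FPKM + 1) (x axis) for the 9 genes past the filter (y axis) in the 3 comparisons. Filled points were tested and have their 95% intervals from limma as bars, and open points without bars are Esd, Akr1b8 and Hebp2, which were picked on the data and carry no test. The 9 points lie above 0 for LPS + G-CDs against LPS, and 8 of 9 lie below 0 for LPS against control.

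Within groups the order of the libraries was often shared. In LPS + G-CDs, replicate 3 held the highest FPKM for 9 of the 10 genes and replicate 1 the lowest for 9, while replicate 3 was highest of its group for 46.4% of all genes tested. In control, replicate 3 was highest for 9 of the 10, against 35.7% of all genes. In LPS, replicates 1, 2 and 3 were highest for 2, 2 and 6 genes. LPS + G-CDs replicate 3 was also the library with the largest sum of FPKM values. With that library left out, the log2 difference from LPS was 1.53 for Esd and 1.92 for Akr1b8, against 1.76 and 2.11 with all libraries. Why its values were high was not tested. On the TPM scale, replicate 3 was highest for 7 of 10 in both groups, against 23.5% and 22.3% of all genes. Rescaled in this way, Aldh2 was at 96.5, 93.1 and 89 TPM in LPS + G-CDs and Hebp2 at 4.07, 4.05 and 3.98, so that their order within the group turned.

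TPM moved the median log2 difference of all genes to -0.14 for LPS + G-CDs against LPS, -0.23 for LPS against control and -0.38 for LPS + G-CDs against control. Relative to these medians, Esd was 1.73 and Akr1b8 2.12 higher in LPS + G-CDs than in LPS, close to the 1.74 and 2.09 on the deposited scale. Relative to them, Adh5 was lower in LPS than in control by a difference of -0.75, Cbr1 by -0.94, Ephx1 by -1.17 and Aldh2 by -0.56. Akr1a1, the member whose direction turned, was at -0.28 between LPS + G-CDs and control on the TPM scale and at 0.09 relative to the median of all genes.

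A wider list of 64 enzymes of carbonyls, aldehydes, quinones and epoxides was examined beside the members, of which 63 were found and 37 passed the filter. Between LPS + G-CDs and LPS, 28 of the 37 had differences above 0 and 9 below, with a median of 0.26 (0.40 with voom), and of all genes 6028 of 11585 had differences above 0, with a median of 0.017. In limma 0 of the 37 passed the adjusted threshold, as with voom, and 12 were higher and 0 lower at an unadjusted p under 0.05, where 7.19% of all genes were higher and 8.04% lower. The study's rule was met by 3, all higher, against the 1.24% of all genes, and these 3 were singled out after their values were seen. Cbr3, a paralog of Cbr1, was at 2.48, 4.32 and 6.02 FPKM in LPS + G-CDs and 1.10, 1.16 and 0.933 in LPS (log2 difference 1.3, adjusted p = 0.111). Akr7a5, an aldo-keto reductase of dialdehydes, had a difference of 0.81 (adjusted p = 0.229), and the short-chain dehydrogenase Dhrs7 also 0.81 (adjusted p = 0.110). Without LPS + G-CDs replicate 1, 4 of the 37 passed the adjusted threshold, namely Cbr3, Dhrs1, Dhrs7 and Ptgr1, also named after the values were seen, and the share of all genes higher was then 0.915%.

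With LPS, 16 of the 37 fell and 3 rose, with a median log2 difference of -0.48, where 15.6% of all genes fell and 15.8% rose. That median was -0.82 on TPM and -0.87 with voom. The number lower was 8 without LPS replicate 1 or 2 and 9 without LPS replicate 3, where 10.5%, 10.3% and 10.4% of all genes were lower. On TPM 24 were lower and 2 higher, and with voom 22 and 2, where 26.4% and 27% of all genes were lower. With the replicate number as a block, 17 were lower and 4 higher, and Dhrs13 and Aldh1l2 were added, while 17.2% of all genes were lower and 18.3% higher. The largest falls were those of Cbr3, from 5.42 ± 1.91 to 1.06 ± 0.115 FPKM (-1.60, limma adjusted p = 0.0023), Akr7a5, from 15.8 ± 3.61 to 5.27 ± 0.552 (-1.40, adjusted p = 0.00206), and Dcxr, a reductase of dicarbonyls, from 8.46 ± 2.41 to 3.64 ± 0.811 (-1.01, adjusted p = 0.0207, SD, n = 3 each). The call for Dcxr was lost without control replicate 3 or LPS replicate 1 or 2 (adjusted p from 0.0504 to 0.0823) and with no filter (0.053). Dhrs3, which reduces retinal, rose from 4.64 ± 1.44 to 25 ± 0.65 FPKM (2.24, adjusted p = 7.27e-05), and Por, the electron donor of cytochromes P450, rose from 37.6 ± 6.66 to 108.4 ± 6.92 (1.52, adjusted p = 0.000114).

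Against control, LPS + G-CDs had 4 of the 37 higher and 3 lower, against 12.8% and 12.4% of all genes. The median over the 37 was -0.09, and it was -0.53 on TPM, -0.37 with voom, -0.16 with quantile normalization, -0.03 without LPS + G-CDs replicate 1, -0.25 without LPS + G-CDs replicate 3 and -0.05 and -0.16 without control replicates 3 and 2. The lower calls numbered 0 from the 6 libraries alone, 1 without control replicate 2 or LPS + G-CDs replicate 2 and 7 without LPS + G-CDs replicate 3, where 7.23%, 9.44%, 7.74% and 12.1% of all genes were lower. They numbered 18 on TPM and 11 with voom, where 27.8% and 22% of all genes were lower. Dhrs3 (1.98, limma adjusted p = 0.000183) and Por (1.40, adjusted p = 0.000221) were also above control, and their differences from LPS alone were -0.26 and -0.12, short of the threshold. Cryzl1, related to quinone oxidoreductase, was higher by 0.67 (adjusted p = 0.0109). Aldh9a1, a dehydrogenase of aminoaldehydes, and Zadh2, a prostaglandin reductase, were both lower by a difference of -0.73 (adjusted p = 0.0101 and 0.0216). The call for Zadh2 was lost without control replicate 1 or 2 or LPS + G-CDs replicate 2 (adjusted p from 0.0574 to 0.0675). Fitted on the 6 libraries compared, Cryzl1, Aldh9a1 and Zadh2 did not pass (adjusted p = 0.0509, 0.0516 and 0.0749), nor did Cryzl1 on TPM (adjusted p = 0.115).

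**Figure D4:**
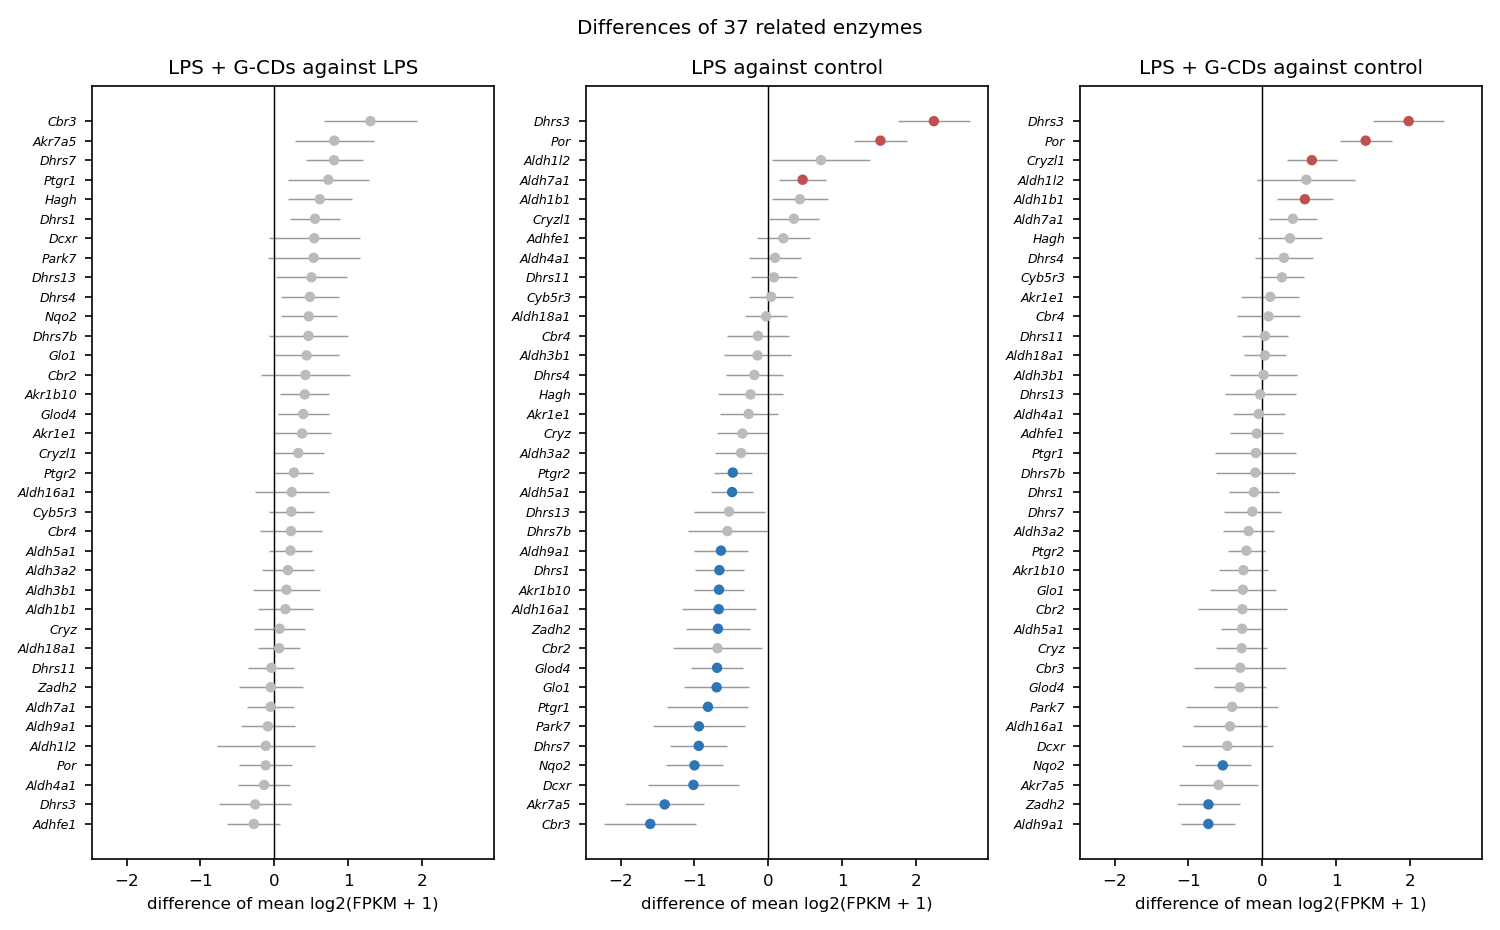
Difference of mean log2(FPKM + 1) (x axis) with its 95% interval for the 37 enzymes of the wider list (y axis, sorted within each panel) in the 3 comparisons. Red points were higher and blue points lower at a limma adjusted p under 0.05, and grey points did not pass. LPS against control has 16 blue and 3 red points, and LPS + G-CDs against LPS has grey points only, 28 of them above 0.

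The genes whose log2 levels followed Esd most closely over the 9 libraries were Prdx1 (Pearson r 0.991), a peroxiredoxin, Hmox1 (0.981), heme oxygenase, Alas1 (0.973), which starts heme synthesis, Cfap36 (0.973) and Ufd1 (0.971). Mean levels in control, LPS and LPS + G-CDs were 157, 186 and 673 FPKM for Prdx1 and 63.1, 76.4 and 728 for Hmox1. Those most like Akr1b8 were Slc48a1 (0.969), a heme transporter, Zdhhc18 (0.961), Layn (0.960), Blvrb (0.959), a biliverdin reductase, and Pced1b (0.959). Slc48a1, at 16.7, 7.84 and 35.3 FPKM, and Blvrb, at 14.8, 11.1 and 46.8, were lowest in LPS, as Akr1b8 was. Prdx1 and Hmox1, like Esd, had their lowest mean FPKM in control. For Esd this order depends on the scaling, since its mean TPM was 180.65 in control and 181.07 in LPS. The 9 libraries form 3 groups of 3, so these correlations mostly describe the group means. Among the members, r between Esd and Akr1b8 was 0.899, between Esd and Adh5 0.247 and between Adh5 and Aldh2 0.933.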

How the data were processed

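mRNA of the 9 RAW264.7 libraries was sequenced by the authors on an Illumina instrument, and they deposited FPKM values per gene with gene coordinates and lengths. The labels name the builds GRCm38 and mm10, and the coordinates equaled those of GENCODE mouse release M21 for 53499 of 54409 shared genes. The aligner, the counting method and the handling of shared reads are not given in the sources used here. FPKM multiplied by gene length and by a library size inferred from the low values themselves gave whole reads (within 0.05 reads) for 100% of values. Column names gave the sample of each column, and 0 columns were of samples outside the series.

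The filter on low values kept genes that reached an FPKM of 1 in 3 or more of the 9 libraries. log2(FPKM + 1) was fitted with limma 3.58.1 (R 4.3.3, lmFit, eBayes with trend, 1 model of 3 groups), two-sided, with Benjamini-Hochberg adjustment over all 11585 genes and a threshold of 0.05. The fit was tested on simulated data. Tables were handled in Python 3.11.15 (pandas 2.3.3).

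The members, the wider list and the tests were chosen with earlier results of these data known. Named genes are the members, the 5 largest differences of the wider list per comparison at the threshold, and the 5 genes most correlated with Esd and Akr1b8. Other enzymes of the wider list are named outside this rule, after their values were seen, as are genes that share sequence with a member. Control and LPS libraries of the same number deviated together from their group means only weakly (r of 0.103, 0.137 and 0.113, all above 0.1). Their unlike numbers gave -0.127 to -0.0139. LPS + G-CDs and LPS gave 0.0950, 0.0801 and 0.143 for the same number. LPS + G-CDs and control gave 0.280, 0.0575 and 0.653, and their unlike numbers ran from -0.671 to 0.504. These values do not settle whether the numbers pair libraries, and no source says what a number stands for. The main fit used no pairing in any comparison, and the replicate block was an alternative. Alternatives were a pseudocount of 0.1, no filter and a stricter one (FPKM of at least 5), scaling by TPM, by median of ratios or by quantiles, a fit of only the 6 libraries compared, voom on the recovered reads, eBayes with no trend, removal of the gene-length trend, a replicate block and fits without 1 of the libraries.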

Additional observations from a re-analysis of the deposited data

How the results depend on the processing

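Between LPS + G-CDs and LPS 57 genes were called, and the count was 25 with a pseudocount of 0.1, 27 on TPM, 25 from the 6 libraries alone and 93 with the gene-length trend removed, and ran from 11 (without LPS + G-CDs replicate 2) to 256 (without LPS + G-CDs replicate 1) with a library left out; it fell to 23 without control replicate 2, to 14, 12 and 21 without LPS replicates 1, 2 and 3, and to 29 without LPS + G-CDs replicate 3. The study's rule gave 288 genes, and 192 (without LPS replicate 2) to 1368 (without LPS + G-CDs replicate 1). LPS + G-CDs against control gave 2927 calls, 1789 from the 6 libraries alone, and 1914 (without LPS + G-CDs replicate 2) to 3245 with a library left out. LPS against control gave 3630, and no alternative moved it by over 1.5 times. The share of calls that were higher was 50.3% for LPS against control and 24.7% on TPM, 40.9% with quantile normalization and 27.0% with voom, and for LPS + G-CDs against control 50.8%, 19.1%, 42.6% and 28.3%. The cause of these moves was not tested.

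With the replicate block, 53 genes were called between LPS + G-CDs and LPS, 4104 between LPS and control and 3347 between LPS + G-CDs and control, 488 genes met the study's rule, and no call of a member changed. In the wider list the block added Dhrs13 and Aldh1l2 for LPS against control and Aldh1l2 for LPS + G-CDs against control, where it removed none.

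Directions turned only where the difference was small, for LPS + G-CDs against control. Akr1a1 (0.15) was at -0.28 on TPM, -0.38 with quantile normalization and -0.10 with voom, and from -0.046 to 0.34 with a library left out. Adh5 ranged from -0.35 to 0.011 and Cbr1 from -0.31 to 0.13 with a library left out. Nqo1, at no more than 8 reads in a library, is limited by depth.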
